A study of Mus musculus with 6 samples.

Results

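The genes described here encode nucleoporins, which build the nuclear pore, the THO complex, Aly/REF and NXF factors that take mRNA out of the nucleus, and the importins, exportins and transportins that carry cargo through the pore. They were taken by gene symbol from the protein-coding rows of the deposited table (symbols that begin with Nup, Thoc, Xpo, Ipo, Kpna, Kpnb, Nxf, Nxt, Alyref or Tnpo, with a number where the family has one), which gave 58 of 54532 genes. RNA of pancreatic islets from mice aged 7 weeks was selected for poly(A) and sequenced. The control group was 3 libraries from Ythdc1flox/flox mice, whose Ythdc1 alleles are floxed. The knockout group was 3 libraries from Ythdc1-betaKO mice (bKO), in which Ythdc1 is deleted in beta cells. The promoter that drives the recombinase was not given in the sources used here. Nor do they say whether the control mice carried a recombinase. Islets hold other endocrine cells, vessels and immune cells beside beta cells, so a lower value in bulk RNA cannot be told apart as fewer cells of a type or less RNA per cell.

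The nuclear pore is a large channel in the nuclear envelope. Stacked rings of scaffold nucleoporins hold it in place, and nucleoporins rich in phenylalanine-glycine (FG) repeats fill the channel and let only transport receptors pass. Messenger RNA is coated by the THO/TREX complex with its adaptor Aly/REF and is then handed to the export receptor NXF1, which works as a pair with NXT1 or NXT2. Proteins with a nuclear localization signal bind an importin alpha (Kpna genes), which binds importin beta (Kpnb1), and exportins carry proteins, tRNA or precursor microRNA the other way, with direction set by the GTPase Ran. YTHDC1 is a nuclear reader of N6-methyladenosine in RNA and is known for passing methylated mRNA to this export route through the splicing factor SRSF3 and NXF1.

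The libraries held 16863329 to 18240339 recovered reads, and the first principal component, with 49.9% of the variance, separated the groups. Ythdc1 was at 5.76, 6.46 and 6.18 FPKM (fragments per kilobase of gene, adjusted for depth by size factors) in control and at 3.81, 3.79 and 3.87 FPKM in bKO. All 3 bKO libraries were below all controls, a log2 fold change of -0.56 with an SE of 0.058 (limma adjusted p = 0.0014). For bKO replicates 2 and 3 the description field gives a different Ythdc number from the genotype field, and Ythdc1 was low in both. Insulin, glucagon and somatostatin genes were abundant in all 6 libraries. Some marker lists moved with genotype, while the summed level of the acinar list overlapped between groups. Over all tested genes 20.3% were called at a limma adjusted p below 0.05 (11.4% lower and 8.96% higher). The share called was 7.69% of the tested acinar genes, 14.3% of the mesenchymal and 20% of the duct genes. Of 20 genes of proliferating cells, 15 fell and 0 rose (summed level 60.4 to 69.5 FPKM in control and 39.2 to 42.0 in bKO, with 0 rises also at an unadjusted limma p under 0.05 and with voom). Of 12 tested macrophage genes, 7 fell (251 to 278 and 143 to 179 FPKM for the 13 listed). Of 11 tested endothelial genes, 6 rose (170.2 to 197 and 219.8 to 225 FPKM for the 12 listed). Of 10 beta-cell genes, 7 fell and 1 rose (202879 to 224711 and 132137 to 141387 FPKM). The summed level of 7 duct genes was 52.2 to 57.8 FPKM in control and 116 to 129 in bKO, with 1 of 5 tested genes called higher. It was 28930 to 32150 and 36008 to 36373 FPKM for 8 alpha, delta and PP cell genes (3 rose), 74.3 to 251 and 145 to 212 for 16 acinar genes (1 of 13 tested rose), and 14.8 to 15.9 and 17.3 to 21.1 for 8 mesenchymal genes (1 of 7 tested rose). No gene of these lists was at 0 in all libraries, and their part in the results below was not tested.

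The importin alpha genes Kpna2 and Kpna3, the NXF1 partner Nxt2 and the general export receptor Xpo1 were lower in bKO islets, and the tRNA exportin Xpot was higher. These were the 5 members called, meaning a Benjamini-Hochberg adjusted p below 0.05 in limma over all tested genes. No call came from the members with a Nup symbol, the THO complex or Aly/REF. The Kpnb1, Ipo and Tnpo genes, grouped here as the importin beta family, gave none either. Outside the symbol rule, Seh1l was called lower and Ranbp2 higher among 11 other pore proteins tested. Of the 58 genes, 52 passed the filter of at least 0.5 FPKM in at least 3 libraries, and 4 of them fell and 1 rose (9.62%). Over all 15717 tested genes 20.3% were called, 11.4% lower and 8.96% higher. The members' changes were small: the median log2 fold change was -0.03 against -0.01 for all genes, and the median of its absolute value was 0.086 against 0.148. The groups did not overlap for 19 members, with bKO all above in 4 and all below in 15, or 36.5%, against 40.1% of all tested genes (18.5% above and 21.6% below).

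Scaling matters for effects of this size. When libraries were scaled by their read totals instead of the size factors in the deposited values, the log2 fold change had a median of 0.13 over all genes in place of -0.01, and of 0.12 over the members in place of -0.03. Ins1 and Ins2, which count in those totals, had 616175 to 1101057 and 2020517 to 3027080 reads per library. Their FPKM was lower in every bKO library, and their part in the shift was not tested. With library totals 6 members were called higher and 3 lower, against 23.4% and 4.69% of all tested genes (28.1% together). With quantile normalization 2 were higher and 3 lower, against 9.21% and 8.95% (18.2% together). With voom on the recovered reads 2 were higher and 10 lower, against 12.5% and 15.2% (27.7% together). The calls and directions of Kpna2, Kpna3, Nxt2 and Xpot held under all 15 settings that were run, library totals and quantile normalization among them. The fall of Xpo1 was called in 7 of the 15.

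**Figure D1:**
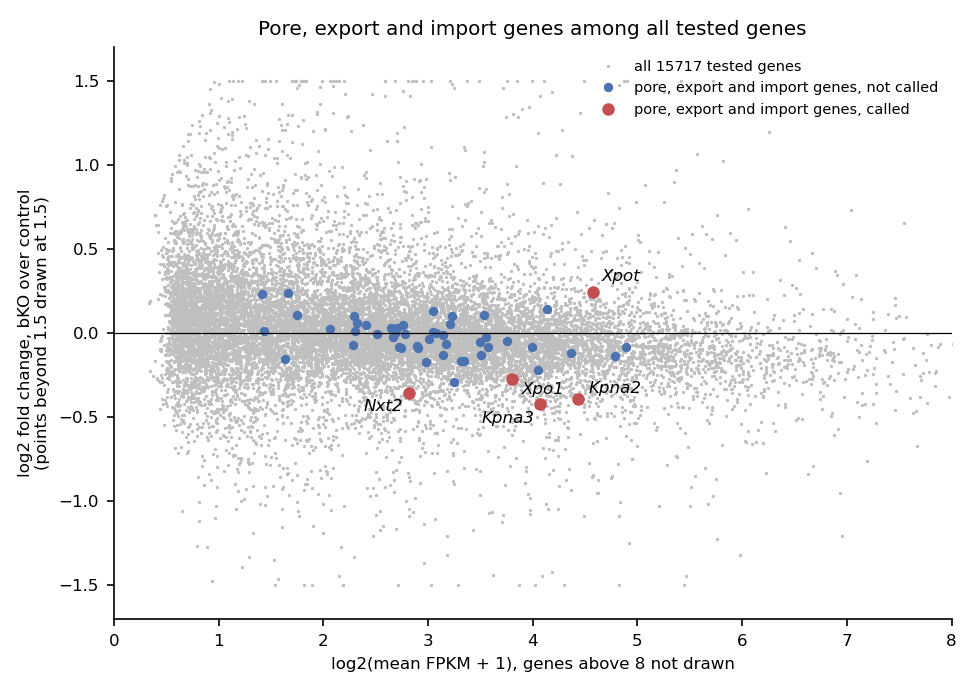
Log2 fold change of bKO over control on the log2(FPKM + 1) scale against log2 of the mean FPKM + 1, with the 15717 tested genes in grey (those above 8 on the horizontal axis are not drawn) and the 52 tested pore, export and import genes in colour. Most coloured points lie near 0, and the 5 called genes, Xpot above and Kpna2, Kpna3, Nxt2 and Xpo1 below, lie at 0.24 and at -0.42 to -0.27.

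RefSeq promoter windows on build GRCm38.p6 were found for 46 of the 58 genes, 59 windows in all. The 250 bases before the start site are shown for Kpna2, Nxt2, Xpo1 and Xpot, which are 4 of the 5 genes called. Kpna3 has no entry. Capitals mark any match, on either strand, to CCAAT (the CCAAT box), TTTGAA (the cell cycle homology region, CHR), CACGTG (the E-box), TGATGNAA (the C/EBP-ATF response element) or GGGCGG (the GC box). The motifs were chosen after the calls were known.
Kpna2, chr11:106999526-106999775, minus strand: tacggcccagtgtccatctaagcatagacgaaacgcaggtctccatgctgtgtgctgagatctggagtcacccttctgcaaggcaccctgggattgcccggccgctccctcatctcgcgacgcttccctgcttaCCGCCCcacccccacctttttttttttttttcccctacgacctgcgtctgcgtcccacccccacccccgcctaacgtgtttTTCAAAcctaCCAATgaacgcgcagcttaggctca
Nxt2, chrX:142227687-142227936, plus strand: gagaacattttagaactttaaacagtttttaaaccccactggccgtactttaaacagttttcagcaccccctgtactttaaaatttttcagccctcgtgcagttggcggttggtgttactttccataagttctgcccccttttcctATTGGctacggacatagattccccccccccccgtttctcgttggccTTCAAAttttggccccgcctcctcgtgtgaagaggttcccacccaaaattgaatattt
Xpo1, chr11:23255791-23256040, plus strand: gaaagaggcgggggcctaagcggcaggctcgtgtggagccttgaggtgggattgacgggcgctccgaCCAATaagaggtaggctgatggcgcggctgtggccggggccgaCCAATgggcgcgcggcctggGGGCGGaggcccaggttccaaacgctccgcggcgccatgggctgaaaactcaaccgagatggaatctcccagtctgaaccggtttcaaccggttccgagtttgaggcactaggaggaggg
Xpot, chr10:121626333-121626582, minus strand: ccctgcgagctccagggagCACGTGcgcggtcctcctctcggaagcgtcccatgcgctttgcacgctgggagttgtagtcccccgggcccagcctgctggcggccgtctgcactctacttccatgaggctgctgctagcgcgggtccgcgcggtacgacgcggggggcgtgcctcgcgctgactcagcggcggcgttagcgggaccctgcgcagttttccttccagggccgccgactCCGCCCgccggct
The Kpna2 window held CCAAT and TTTGAA within 35 bases of the start, and the Nxt2 window held both within 104 bases. CCAAT with TTTGAA was in 5.55% of all 32851 windows and in 7 of the 59 member windows, those of Kpna2 and Nxt2, of the uncalled genes Nup37 (2 windows), Nup98 and Tnpo2, and of Kpna7, which was not tested. The second Nxt2 window, further downstream, held neither. The Xpo1 window had 2 CCAAT matches, a motif in 33.9% of all windows and in 26 of the 59 member windows. The Xpot window held 1 CACGTG, found in 6.02% of all windows and in 7 of the 59 member windows, and no TGATGNAA, found in 3.45% of all windows and in 0 of the 59 member windows. GGGCGG was in 36 of the 59 member windows and in 32.7% of all windows. These matches describe letters and not binding sites.

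The importin alpha genes encode the adaptors that recognise the classical nuclear localization signal. Their members differ in the cargo they prefer, and Kpna2 is abundant in dividing cells. Kpna2 (ENSMUSG00000018362, chromosome 11, 106988629 to 106999541, GRCm38) was at 24.6, 22.8 and 23.0 FPKM in control and at 17.3, 18.3 and 17.4 FPKM in bKO. Each bKO library lay below each control library, and the mean went from 23.5 ± 0.98 to 17.7 ± 0.55 FPKM (SD, n = 3), a fall of 0.39 in log2 units (limma, SE 0.046, adjusted p = 0.0023). Kpna3 (ENSMUSG00000021929, chromosome 14, 61365211 to 61439874) was at 18.4, 17.6 and 18.7 FPKM in control and at 12.9, 13.7 and 13.6 FPKM in bKO. The groups were again apart, and the log2 fold change was -0.42 (limma, SE 0.045, adjusted p = 0.0016), a ratio of means of 0.733. It was the largest fall among the 52 tested members. With library totals the fall was 0.25 for Kpna3 and 0.22 for Kpna2.

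The other importin alpha genes did not pass the test. Kpna4, the closest relative of Kpna3, was at 7.41, 7.15 and 7.49 FPKM in control and at 6.0, 6.42 and 6.81 FPKM in bKO, with no overlap (log2 fold change -0.17, limma adjusted p = 0.077). The log2 fold change of Kpna4 was -0.02 with library totals, and voom called Kpna4 lower. Kpna1 was at 7.46 ± 0.33 and 7.47 ± 0.24 FPKM, and Kpna6 at 10.9 ± 0.82 and 10.7 ± 0.52 FPKM, and in both the groups overlapped. The limma 95% interval of the log2 fold change was -0.12 to 0.13 for Kpna1 and -0.18 to 0.13 for Kpna6. Kpna7, known from oocytes and early embryos, had 1 read in control and 2 in bKO.

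A ratio of 2 genes within a library does not depend on how libraries are scaled. The pairs were chosen with the levels of these genes in the same libraries known. Their lack of overlap therefore follows largely from those levels and is not separate support. The Kpna3 to Kpna1 ratio was 2.48, 2.47 and 2.39 in control and 1.79, 1.78 and 1.81 in bKO, and the Kpna2 to Kpna1 ratio 3.32, 3.19 and 2.95 against 2.40, 2.38 and 2.32. The first was lower in bKO by 0.45 on the log2 scale and the second by 0.41, and the Kpna4 to Kpna1 ratio by 0.20. None of these 3 ratios overlapped between groups (two-sided exact permutation p = 0.1, which 3 against 3 cannot go below, 0.109 adjusted over the 12 ratios computed). Against Kpnb1, the importin beta that importin alpha joins, Kpna2 went from 0.784 to 0.807 in control to 0.614 to 0.655 in bKO.

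Beside Kpna2 stands Mki67, a marker of proliferating cells, at 4.59, 4.01 and 4.01 FPKM in control and 1.75, 1.91 and 2.17 FPKM in bKO (log2 fold change -0.82, limma adjusted p = 0.0013). The 6 importin alpha genes summed to 67.4 ± 2.4 FPKM in control and 55.6 ± 1.8 in bKO (SD, n = 3). Kpna2-ps, a pseudogene of Kpna2 listed in the table, had 0 reads in all libraries.

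**Figure D2:**
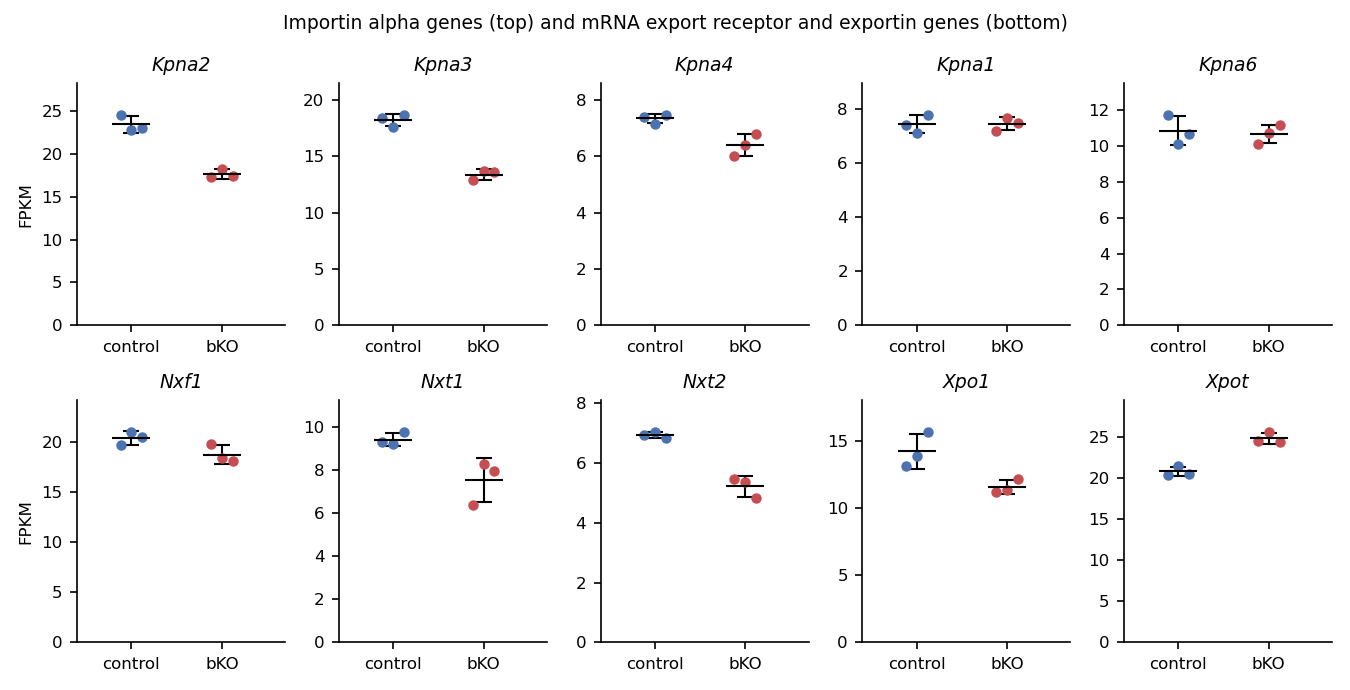
FPKM of importin alpha genes (top row) and of Nxf1, Nxt1, Nxt2, Xpo1 and Xpot (bottom row) in each library, control in blue and bKO in red, with the mean (wide bar) and SD of 3 libraries. Groups are apart for Kpna2, Kpna3, Kpna4, Nxt1, Nxt2, Xpo1 and Xpot, and overlap for Kpna1, Kpna6 and Nxf1.

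Exportins bind cargo with Ran-GTP in the nucleus. Xpot, exportin-t, carries mature tRNA to the cytoplasm (ENSMUSG00000034667, chromosome 10, 121587380 to 121626332). It was at 20.4, 21.5 and 20.6 FPKM in control and at 24.5, 25.6 and 24.4 FPKM in bKO. All bKO libraries were higher, and Xpot rose by 0.24 in log2 units (limma, SE 0.041, adjusted p = 0.0081), a ratio of means of 1.19. Xpot was the only member that limma called higher with the deposited scaling, while voom with the same size factors also called Tnpo2. With library totals 6 members were called higher, Xpot by 0.41.

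Xpo1 (CRM1) exports proteins with a leucine-rich signal and some RNAs (ENSMUSG00000020290, chromosome 11, 23256041 to 23298249). It was at 13.1, 13.9 and 15.7 FPKM in control and at 11.2, 11.3 and 12.2 FPKM in bKO. The groups did not overlap, and the log2 fold change was -0.27 (limma, SE 0.071, adjusted p = 0.037). The call ended when control replicate 2, control replicate 3 or 1 of the bKO libraries was left out (limma adjusted p = 0.056 to 0.112). It also ended under quantile normalization (limma adjusted p = 0.085), without a filter (0.073) and under library totals (0.33, log2 fold change -0.11). Per library, the Xpot to Xpo1 ratio was 1.55, 1.55 and 1.31 in control and 2.18, 2.26 and 2.0 in bKO, higher in bKO by 0.55 on the log2 scale with no overlap (two-sided exact permutation p = 0.1, the smallest possible, 0.109 adjusted over 12 ratios).

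The other 4 Xpo genes were not called. Xpo5, which exports precursor microRNA, was at 10.1, 10.1 and 9.10 FPKM in control and at 8.93, 8.37 and 8.38 FPKM in bKO, just without overlap (log2 fold change -0.17, limma adjusted p = 0.082). The log2 fold change of Xpo5 was -0.008 with library totals. Voom and the fit without control replicate 3 called Xpo5 lower. Xpo6, the exporter of actin, was at 5.87 ± 0.13 and 5.84 ± 0.31 FPKM, and Xpo7 at 5.21 ± 0.25 and 5.34 ± 0.40 FPKM. Xpo4, the least abundant of the 6 exportins chosen by symbol, was at 3.96, 4.36 and 4.31 FPKM in control and 4.54, 4.33 and 4.27 FPKM in bKO, and the groups overlapped. The 6 exportins summed to 60.1 ± 1.1 FPKM in control and 60.6 ± 0.35 in bKO.

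NXF1 and its small partners NXT1 and NXT2 form the receptor that takes bulk mRNA through the pore. Nxt2 (ENSMUSG00000042271, chromosome X, 142226770 to 142239692) was at 6.92, 7.03 and 6.84 FPKM in control and at 5.48, 5.35 and 4.82 FPKM in bKO. Its groups were well apart, and the log2 fold change was -0.35 (limma, SE 0.058, adjusted p = 0.0079), a ratio of means of 0.752. With library totals it was -0.20 (limma adjusted p = 0.046). Nxt1 was at 9.29, 9.20 and 9.79 FPKM in control and at 6.39, 8.31 and 7.95 FPKM in bKO. All bKO values were below control but spread widely, with bKO replicate 1 the lowest, and Nxt1 did not pass the test (log2 fold change -0.29, SE 0.091, limma adjusted p = 0.063), nor did it under any of the 15 settings. Nxt1 rested on 137 to 177 reads per library, among the lower counts of the tested members.

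Nxf1 itself was at 19.7, 21.0 and 20.5 FPKM in control and at 19.8, 18.4 and 18.1 FPKM in bKO. The groups overlapped through bKO replicate 1, and Nxf1 was not called (log2 fold change -0.12, limma 95% interval -0.23 to 0.0004, adjusted p = 0.15). The Nxt2 to Nxf1 ratio was 0.351, 0.335 and 0.333 in control and 0.276, 0.291 and 0.267 in bKO, lower by 0.29 on the log2 scale with no overlap (two-sided exact permutation p = 0.1, the smallest possible). The Nxt1 to Nxf1 ratio overlapped between groups (two-sided exact permutation p = 0.3). The NXF1 relatives Nxf2, Nxf3 and Nxf7, known mainly from germ line and brain, had 0 to 6 reads per library and were not tested.

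The THO complex and Aly/REF, which load onto mRNA during transcription, gave 0 calls among 8 members. That count was 0 in both directions with voom on recovered reads, and at an unadjusted limma p under 0.05, which 15.7% of all tested genes passed as higher and 19% as lower. Thoc3, the most abundant, was at 9.39, 11.4 and 9.74 FPKM in control and at 10.01, 11.2 and 11.9 FPKM in bKO, with overlapping groups. Thoc5 was lower in every bKO library (8.26 ± 0.44 and 7.44 ± 0.30 FPKM, limma adjusted p = 0.15). Its log2 fold change was -0.13 and turned to 0.02 with library totals. Thoc1 was at 7.89 ± 0.39 and 7.81 ± 0.21 FPKM, Thoc2, the largest subunit, at 6.72 ± 0.30 and 6.26 ± 0.21 FPKM, and Alyref at 6.65 ± 0.50 and 6.26 ± 0.54 FPKM. In all 3 the groups overlapped. Alyref2 was at 1.56, 1.60 and 1.12 FPKM in control and at 1.27, 2.95 and 1.53 FPKM in bKO, with bKO replicate 2 well above the other 5 libraries. It rested on 23 to 68 reads per library, and 49.8% of its exonic bases overlap an antisense gene, so its value is uncertain. The 8 genes summed to 49.0 ± 0.75 FPKM in control and 48.4 ± 1.7 in bKO.

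Among 19 tested nucleoporins chosen by symbol, limma called 0 higher and 0 lower. At an unadjusted limma p under 0.05, 2 were higher and 2 lower (15.7% and 19% of all tested genes). Voom called 0 higher and 2 lower (Nup93 and Nup153). The median log2 fold change of the 19 was 0.001. For 16 of the 19 the limma 95% interval lay inside ±0.32. That is the range of a 1.25-fold change in either direction on the log2(FPKM + 1) scale. Over all members 42 of 52 intervals lay inside that range, and over all tested genes 41.2% did. The members outside it were the 5 called genes with Nup37, Nup43, Nup93, Nxt1 and Alyref2. The members also had a smaller median SE than all tested genes (0.059 against 0.083). A smaller SE narrows the interval, so the shares inside the range do not compare sizes of change alone. Library totals shift the intervals upward, and 3 of the 19 nucleoporins, Nup43, Nup98 and Nup210, were called higher there.

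The outer ring, or Y complex, is the scaffold on both faces of the pore. Among its 6 genes chosen by symbol, Nup85 was the most abundant, at 8.02, 8.40 and 7.82 FPKM in control and at 8.77, 8.92 and 7.62 FPKM in bKO. Nup43, the least abundant, was at 1.96, 1.79 and 1.95 FPKM in control and at 2.18, 2.37 and 2.75 FPKM in bKO. Its bKO libraries were all higher, but it did not pass (log2 fold change 0.24, limma 95% interval 0.035 to 0.44, adjusted p = 0.097). Nup37, another member of the complex, was lower in bKO, from 2.28 ± 0.22 to 1.94 ± 0.093 FPKM without overlap (limma adjusted p = 0.22). Nup107, Nup133 and Nup160 overlapped between groups, at 5.79, 3.14 and 3.73 FPKM on average in control and 5.40, 3.21 and 4.06 in bKO. The 6 genes summed to 24.9 ± 0.15 FPKM in control and 25.5 ± 0.49 in bKO.

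The inner ring holds the channel. Nup93, its organiser, was the most abundant of the genes with a Nup symbol chosen here, at 16.3, 17.4 and 16.6 FPKM in control and at 14.1, 16.1 and 12.6 FPKM in bKO. The bKO libraries were all lower and spread more than the control libraries (log2 fold change -0.22, limma adjusted p = 0.11). Nup93 was called lower without bKO replicate 2 and with voom. Nup155 was the least abundant of the ring, at 2.28, 2.08 and 2.39 FPKM in control and at 2.36, 2.51 and 2.62 FPKM in bKO. Nup205, Nup188 and Nup35 ran from 5.42 to 5.87 FPKM on average in both groups, and their groups overlapped.

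Among the rest of the pore, the transmembrane anchor Nup210 was at 6.79, 6.73 and 7.09 FPKM in control and at 7.78, 7.30 and 7.82 FPKM in bKO, all higher in bKO but not called (log2 fold change 0.13, limma adjusted p = 0.11). Its relative Nup210l had 46 reads summed over control and 43 over bKO. Of the channel proteins with FG repeats, Nup62 was at 11.5, 10.9 and 11.4 FPKM in control and at 10.8, 10.7 and 10.2 FPKM in bKO, narrowly apart and not called (limma adjusted p = 0.24, log2 fold change -0.09, and 0.08 with library totals), and Nup54 was at 5.44 ± 0.44 and 5.56 ± 0.48 FPKM. Nup62cl, related to the end of Nup62, had 1 read in each control library and 2, 8 and 6 in bKO, too few for the test.

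On the cytoplasmic side, Nup88 was at 8.23, 8.72 and 7.71 FPKM in control and at 7.84, 7.83 and 7.70 FPKM in bKO. Its partner Nup214 was at 5.43, 4.62 and 4.18 FPKM in control and at 4.39, 4.96 and 4.77 FPKM in bKO, with overlap in both. Nup98, an FG nucleoporin of both faces that binds the mRNA export factor RAE1, was among the steadiest members, at 7.24 ± 0.12 and 7.25 ± 0.11 FPKM. In the basket on the nuclear side, Nup50 was at 13.3, 12.8 and 12.2 FPKM in control and at 11.4, 13.4 and 12.1 FPKM in bKO. Nup153 was at 9.97, 9.68 and 8.99 FPKM in control and at 8.38, 8.25 and 8.59 FPKM in bKO, below control in every library but not called (log2 fold change -0.16, limma adjusted p = 0.069), and at -0.005 with library totals.

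**Figure D3:**
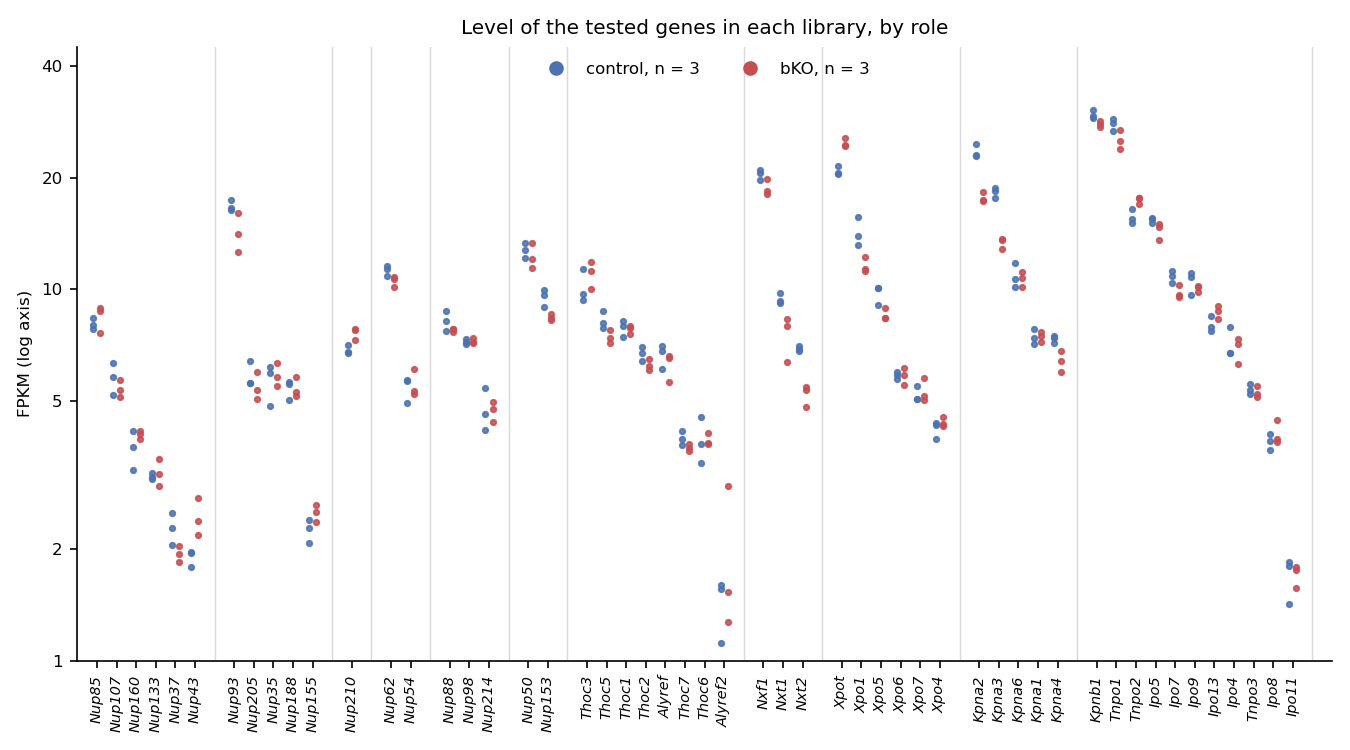
FPKM (log axis) of the 52 tested genes in each library, control in blue and bKO in red, ordered by role from left to right: outer ring, inner ring, transmembrane, channel, cytoplasmic filament, basket, THO and Aly/REF, mRNA export receptor, exportin, importin alpha and importin beta family. Control means run from 1.42 FPKM for Alyref2 to 29.6 for Kpnb1.

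The Kpnb1, Ipo and Tnpo genes, grouped here as the importin beta family apart from the exportins, held the most abundant members. They gave no call among 11. At an unadjusted limma p under 0.05, 1 was higher and 2 were lower, against 15.7% and 19% of all tested genes, and voom called the same numbers. Kpnb1, the carrier that importin alpha uses, was at 30.5, 29.0 and 29.4 FPKM in control and at 27.3, 27.9 and 28.4 FPKM in bKO. It was lower in every bKO library by a small margin (log2 fold change -0.09, limma adjusted p = 0.16), and the difference was 0.09 with library totals. The transportins Tnpo1 and Tnpo2, close relatives that import RNA-binding proteins such as hnRNPs, differed in sign. Tnpo1 was at 26.7, 28.7 and 28.0 FPKM in control and at 23.9, 25.1 and 26.8 FPKM in bKO (log2 fold change -0.13, limma adjusted p = 0.13). Tnpo2 was at 15.1, 16.4 and 15.5 FPKM in control and at 17.6, 17.0 and 17.6 FPKM in bKO, without overlap (log2 fold change 0.14, limma adjusted p = 0.069). With library totals Tnpo1 was at 0.04 and Tnpo2 at 0.31, so the opposite signs depend on the scaling.

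Tnpo3, which imports SR splicing factors, was at 5.39 ± 0.16 and 5.28 ± 0.19 FPKM. Ipo5 and Ipo7, importers of ribosomal proteins, were lower in every bKO library, Ipo5 from 15.4 ± 0.25 to 14.4 ± 0.76 FPKM and Ipo7 from 10.8 ± 0.41 to 9.82 ± 0.41 FPKM, and neither was called (limma adjusted p = 0.27 and 0.12). With library totals both turned, to log2 fold changes of 0.08 and 0.03. Ipo13 was at 8.05 ± 0.39 and 8.69 ± 0.35 FPKM. Ipo4, Ipo8 and Ipo9 overlapped between groups, and 55.3% of the exonic bases of Ipo4 are shared with Gm49378 on the same strand, so its value is uncertain. Ipo11, the least abundant, was at 1.80, 1.42 and 1.84 FPKM in control and at 1.57, 1.79 and 1.76 FPKM in bKO.

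**Figure D4:**
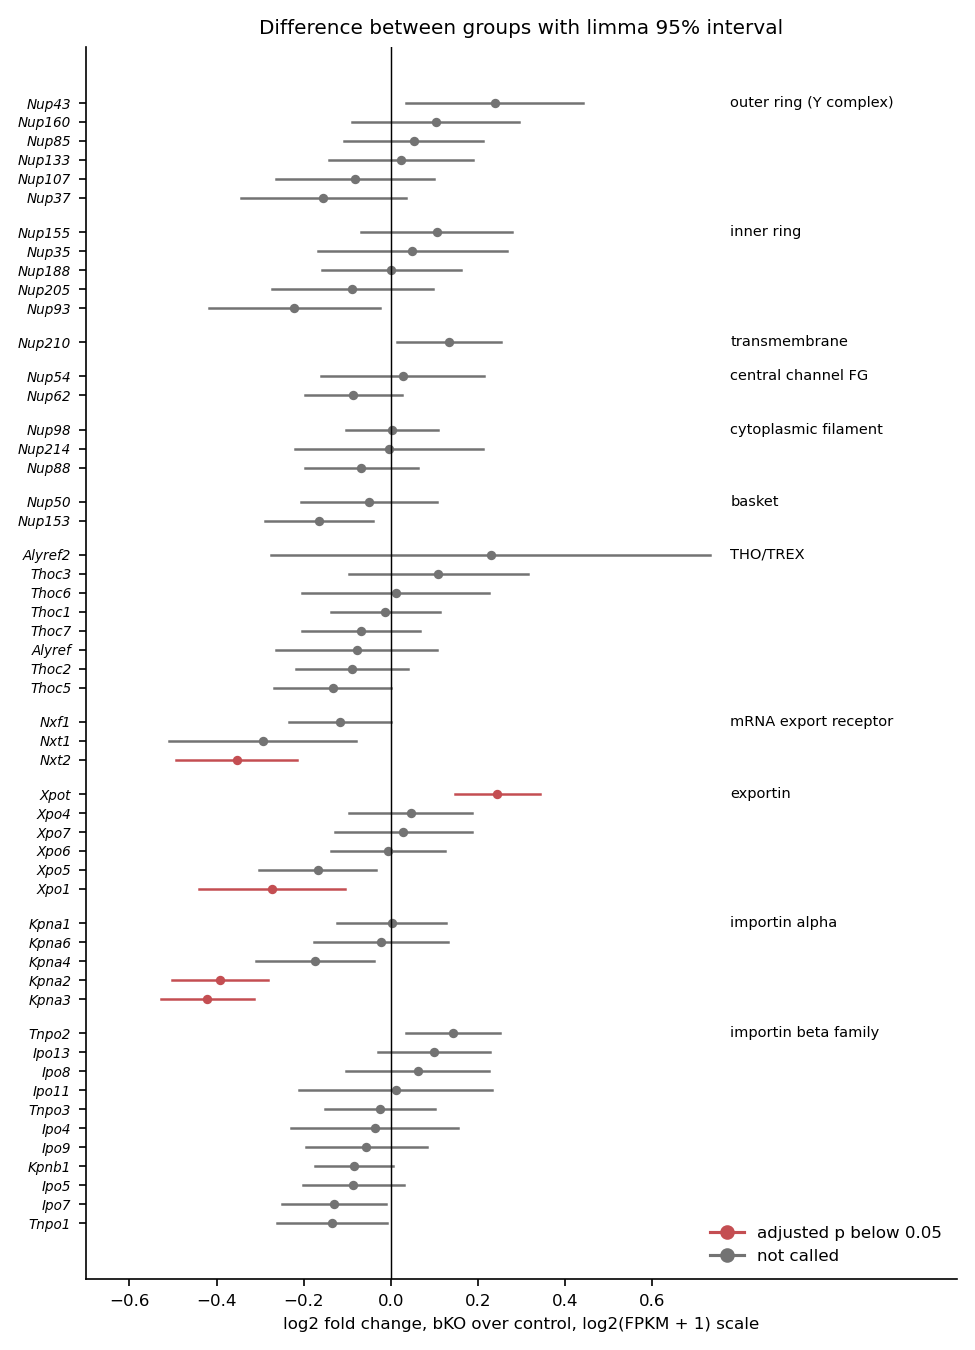
Log2 fold change of bKO over control (point) with its limma 95% interval (line) for the 52 tested genes, grouped by role, on the log2(FPKM + 1) scale. The 5 called genes are in red, and the widest interval is that of Alyref2, from -0.27 to 0.73.

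Levels differed more between members than between genotypes. In FPKM, a scale per gene length, control means spanned 1.42 to 29.6 over the 52 tested genes with a median of 7.29, against a median of 5.93 over 12461 tested protein-coding genes. Among the 5 called genes the control means ran from 6.93 to 23.5 FPKM. Across the 52 genes the log2 fold change had r = -0.45 with log2 of the control mean FPKM + 1, and across all tested protein-coding genes r = -0.28. These are descriptions over genes that share the same 6 libraries. The control mean also enters the log2 fold change, so noise in the control libraries alone pulls r towards negative values. GGACT, the commonest core of the m6A consensus, occurred 0.969 times per kilobase in the longest coding transcript of the median member, and 1.04 times over all tested protein-coding genes. It was at 0.974 per kilobase for Kpna2, 0.492 for Kpna3, 0.394 for Nxt2, 0.999 for Xpo1 and 1.33 for Xpot. Across the 52 members its density had r = 0.13 with the log2 fold change, and the letters do not show that a site is methylated. None of the 5 called genes has exons shared with another gene in GENCODE vM21.

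Beyond the genes chosen by symbol, 45 other genes of the same machinery were listed by function, of which 42 were tested. 9 fell and 2 rose (26.2%, against 20.3% of all tested genes), with a median log2 fold change of -0.07. Of 11 other pore proteins 1 fell and 1 rose, of 20 TREX, TREX-2 and export adaptor genes 4 fell and 1 rose, of 6 Ran cycle genes 2 fell, and of 5 other karyopherin and cargo adaptor genes 2 fell.

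Sem1, a small subunit of the TREX-2 complex and of the proteasome, was at 12.4, 12.1 and 12.2 FPKM in control and at 9.01, 9.88 and 9.50 FPKM in bKO and fell by 0.34 on the log2 scale (limma adjusted p = 0.0043). Ranbp3, a cofactor of XPO1, fell from 12.7 ± 0.067 to 10.4 ± 0.29 FPKM. The export adaptors Fyttd1 (UIF) and Chtop, which bring mRNA to NXF1, fell from 11.8 ± 0.23 to 9.65 ± 0.19 FPKM and from 41.6 ± 1.6 to 35.2 ± 0.30 FPKM. Seh1l, a Y complex member outside the symbol rule, fell from 22.4 ± 0.52 to 18.4 ± 0.82 FPKM. In these 5 genes every bKO library was below every control library.

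Ranbp2, the large filament protein on the cytoplasmic face, rose from 22.3 ± 0.16 to 24.5 ± 0.29 FPKM (limma adjusted p = 0.038), and Ddx19b, a helicase that releases mRNA there, rose from 7.19 ± 0.31 to 8.26 ± 0.12 FPKM (limma adjusted p = 0.045). Both calls ended when any library was left out and with the replicate number as a block. With library totals the calls of Ranbp3, Fyttd1, Chtop and Seh1l ended, at log2 fold changes of -0.11, -0.10, -0.06 and -0.10, while Sem1 stayed called. Cse1l, the exportin that returns importin alpha to the cytoplasm, fell from 12.6 ± 1.1 to 10.2 ± 0.53 FPKM (limma adjusted p = 0.031), and it was called in 8 of 15 settings. Snupn, the adaptor that imports spliceosomal snRNPs, fell from 7.51 ± 0.40 to 5.24 ± 0.65 FPKM and was called in all 15. Both were outside the rule for named genes and were chosen after their values were seen, as cargo partners of the importins.

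**Figure D5:**
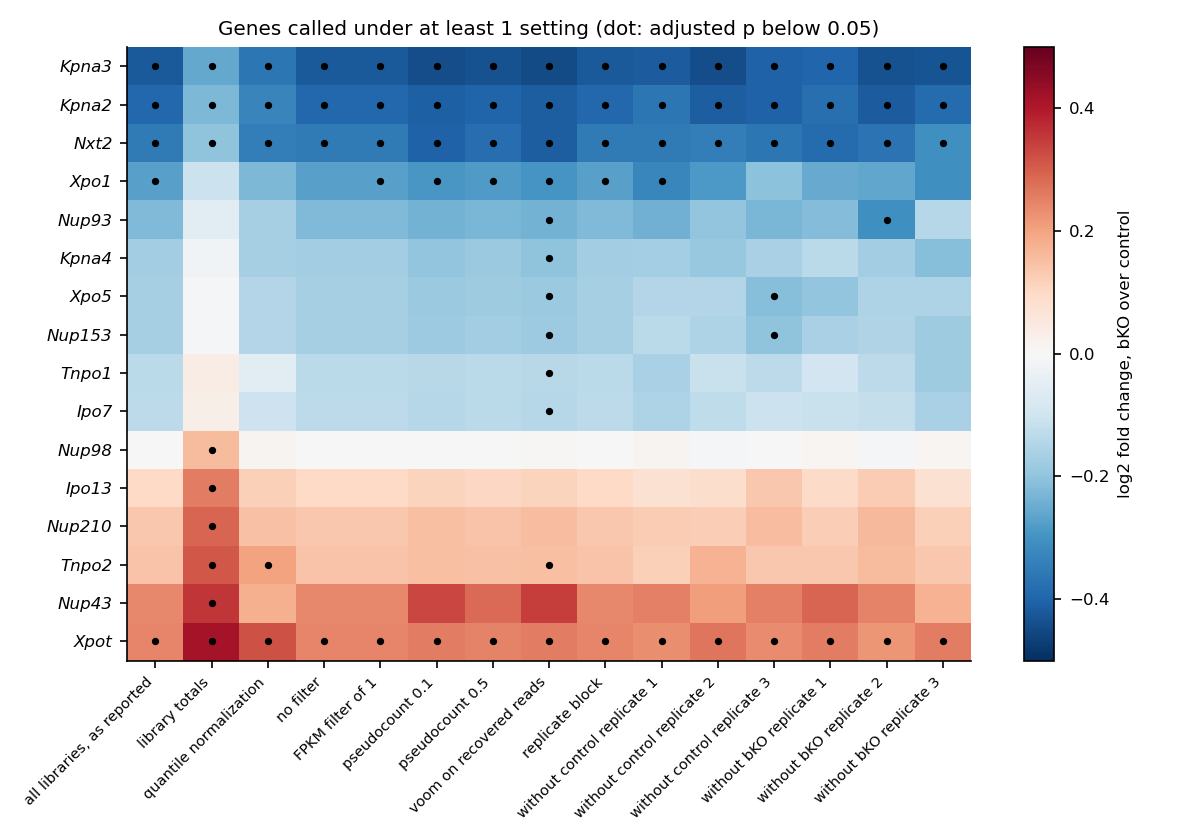
Log2 fold change of bKO over control (colour) for the 16 members called under at least 1 of 15 settings (columns), with a dot where the limma adjusted p was below 0.05. Kpna3, Kpna2, Nxt2 and Xpot carry a dot in every column, while 4 genes, Nup98, Ipo13, Nup210 and Nup43, carry a dot only with library totals.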

How the data were processed

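The authors deposited FPKM per gene for 54532 genes with gene lengths. Per the labels and the design text, HISAT2 2.0.5 placed paired-end reads of poly(A) RNA on GRCm38, and featureCounts 1.5.0-p3 did the counting. DESeq2 1.20.0 and CASAVA appear without a role in the submitters' processing notes. The annotation release, the strand setting and the treatment of multiply mapped reads are not given in the sources used here. Multiplied by length, 100% of the deposited FPKM above 0 were whole multiples (tolerance 0.01) of 1 step per library, and the per-library scale behind the steps equalled the size factor (0.923 to 1.10) times the geometric mean of library totals, so the reads could be recovered. The FPKM columns used were matched to the samples by title.

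A mean-variance trend was used in limma 3.58.1 (R 4.3.3) on log2(FPKM + 1), bKO against control without covariates, for the 15717 genes that reached 0.5 FPKM in 3 or more libraries. P-values were Benjamini-Hochberg adjusted over all of them, with a threshold of 0.05. Fold changes on this scale understate the change of low genes. The limma fit was also run on simulated reads, with larger fold changes than those of the called members and the same dispersion for all genes. That run does not show how the fit performs for changes of the size seen here. Ratios were compared with exact permutation tests in scipy 1.17.1 (Python 3.11.15), for pairs chosen with the gene levels known. Library pairs of 1 group differed beyond sampling noise (chi-square per degree of freedom 4.09 to 6.50), and p-values measure the spread between the 3 independent biological samples the labels state. Members and lists were chosen with earlier results of these data known. Values in every library are given for called members and for the highest and lowest of each role. Of the other pathway genes, up to 5 called in each direction with the smallest adjusted p were to be named. Some uncalled members are also named. 2 symbols of the pathway list were not matched in the table (Ddx39a and Shfm1, the latter an older name of Sem1). GENCODE vM21 (GRCm38) gave exon overlaps and transcripts. Alternatives were library totals, quantile normalization, no filter, a filter of 1 FPKM, pseudocounts of 0.1 and 0.5, voom on recovered reads, the replicate number as a block, and leaving out each library.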

Additional observations from a re-analysis of the deposited data

How the results depend on the processing

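Kpna2, Kpna3, Nxt2, Xpot and Ythdc1 kept direction and call under all 14 alternatives, and no called member or pathway gene changed direction. With library totals 3684 genes were higher and 737 lower among all tested genes, 6 members were higher (Ipo13, Nup43, Nup98, Nup210, Tnpo2 and Xpot), and 11 pathway genes were higher and 2 lower, where the share of all tested genes called was 28.1%. Voom on recovered reads called 2 members higher and 10 lower (27.7% of all tested genes), adding Ipo7, Kpna4, Nup93, Nup153, Tnpo1, Tnpo2 and Xpo5. Quantile normalization called 2 members higher, adding Tnpo2. With no filter 1 pathway gene was higher. Without each library in turn, limma called 762 to 1227 genes higher and 1039 to 1608 lower, 3 to 5 members lower, and 0 to 1 pathway genes higher (2 to 4 higher at an unadjusted p under 0.05). Counts of all genes fell by over 1.5 times without control replicate 1 (886 higher, 1039 lower) and without bKO replicate 1 (762 and 1068), and for higher genes without bKO replicates 2 and 3 (827 and 826). The numbers of the replicates did not pair the libraries (correlations of same-numbered deviations -0.05, -0.01 and -0.07, with no library closest to its own number). With the replicate block 925 genes were higher and 1152 lower, the 5 member calls stayed, and 0 pathway genes were higher (3 at an unadjusted limma p under 0.05, and 2 by voom without the block). The cause of these shifts was not tested beyond the fewer samples or degrees of freedom that the block and the left-out libraries bring. Depth limits Alyref2, Nup43 and Nup37, with 23 to 143 reads per library, and the 6 untested members.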
